A study of Rattus norvegicus with 20 samples.

Results

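Rasgrp1, Rasgrp2, Rap1gap, Rap1a, Rap1b, Rasa1, Nf1 and Hras are 8 genes of the switches that turn the small GTPases Ras and Rap on and off. They were measured in rat cortical neurons that had, or had not, sprouted new axonal connections after a stroke. A probe was taken when its name in the scanner files was one of the 8 names, which found 12 of the 41012 probes on the array. Rap1gap is listed there only under its older name Rap1ga1, and adding it gave 13 probes: 3 for Rap1a, 2 each for Rap1b, Nf1 and Hras, and 1 each for Rasgrp1, Rasgrp2, Rap1gap and Rasa1. All 13 probes passed the filter on brightness, as did 37345 of the 41012 probes on the array. All 8 genes were thus kept, among 33089 genes in all. Rasgrp1 and Rap1gap were chosen by their high ratio at day 7, and the other 6 genes by name. Their day 7 ratios, their levels over time and their difference between days are therefore given as descriptions with no test, and the day 21 ratio, which comes from other animals, was tested for all 8.

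The samples were 10 young rats aged 2 months, 5 of the day 21 cohort and 5 of the day 7 cohort, with 2 dye-swapped two-colour arrays per animal. All animals analysed here had a stroke. Cholera toxin B, a tracer that neurons take up at their axon endings, was injected into the cortex beside the infarct, and a conjugate of another colour was put into the same place 21 or 7 days later. Neurons labelled sprouting and neurons labelled non-sprouting were captured by laser 7 days after the second tracer, about 300 of each type per animal, and their RNA was amplified in 2 rounds. The days were separate cohorts, and RNA of about 300 captured cells also holds what lay in the laser path. Fewer cells of a type and less RNA per cell cannot be told apart in such material. Every ratio below is a log2 ratio of sprouting over non-sprouting neurons of 1 animal, the mean of its 2 arrays, so that 0 means equal signal, and each p-value comes from a limma fit over all 33089 genes, adjusted by Benjamini-Hochberg.

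Ras and Rap act as switches that are on with GTP bound and off with GDP bound. Exchange factors load GTP and turn them on, and GTPase-activating proteins speed up GTP hydrolysis and turn them off. Rasgrp1 is an exchange factor for Ras that is driven by diacylglycerol, and Rasgrp2 is a relative driven by calcium that acts mainly on Rap. Rap1gap turns Rap1 off, while Rasa1 and Nf1 turn Ras off. Hras, Rap1a and Rap1b are the GTPases. In neurons Ras signals to the kinase ERK and through PI3 kinase, both known for their part in axon growth, and Rap is known for its role in neuronal polarity and adhesion.

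The promoters of Rasgrp1 and Rap1gap are shown because these genes had the highest day 7 ratios of the 8. RefSeq (GRCr8) gives 250 bases before and 50 after the gene start, and all 8 genes matched its table. The sequences are of chr3:124684030-124684329, minus strand, for Rasgrp1 and of chr5:155175050-155175349, plus strand, for Rap1gap, each read 5′ to 3′ on the strand of the gene. Capitals mark a GC box, the letters GGGCGG on either strand.
Rasgrp1: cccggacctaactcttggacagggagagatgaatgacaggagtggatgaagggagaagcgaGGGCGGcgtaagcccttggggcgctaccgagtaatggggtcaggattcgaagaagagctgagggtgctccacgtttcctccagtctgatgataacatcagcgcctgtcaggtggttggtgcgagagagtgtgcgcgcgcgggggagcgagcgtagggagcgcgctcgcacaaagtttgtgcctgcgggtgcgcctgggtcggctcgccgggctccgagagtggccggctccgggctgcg
Rap1gap: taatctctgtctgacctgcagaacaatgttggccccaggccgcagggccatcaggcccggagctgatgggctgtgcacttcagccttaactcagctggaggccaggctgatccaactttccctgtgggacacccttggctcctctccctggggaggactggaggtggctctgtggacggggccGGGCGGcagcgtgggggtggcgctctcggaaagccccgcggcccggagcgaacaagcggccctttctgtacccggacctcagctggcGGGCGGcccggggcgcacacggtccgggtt
Rasgrp1 has 1 GC box, at 189 bases before the start, and Rap1gap has 2, at 67 before and 20 after it. A GC box was found in 7 of the 8 promoters, all but Nf1, against 33.1% of 33469 rat promoters of the same length. The 8 promoters hold 57 to 73.7% G and C, against a median of 51.7% over all promoters. The cAMP response element TGACGTCA was found in 1 of the 8, Rap1b, and in 1.83% of all promoters. Its half-site TGACG, which the full element contains, was in 2 of the 8 (Rap1b and Hras) and in 21.2% of all. The E-box CACGTG was in Rasgrp2 alone, against 6.42% of all, and the EGR site GCGTGGGCG was in none, against 0.544%. Both strands were searched for each motif, and a match describes the letters only.

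Markers of neurons were detected on the arrays. All 8 markers of neurons, Rbfox3, Snap25, Syt1, Stmn2, Nefl, Nefm, Map2 and Thy1, passed the filter and lay well above background on 97.5 to 100% of channels. Markers of other cell types also passed. Of all 41012 probes on the array 37345 passed the brightness filter, so passing it says little about which cells were captured. All 10 oligodendrocyte, all 8 astrocyte and all 9 microglia and macrophage markers passed, as did all 7 markers of GABAergic interneurons, 7 of the 9 lymphocyte markers on the array, and all markers on the array for endothelial and mural cells (7), platelets and red cells (6) and projection neurons (3). No measured marker was below background on every array. The 2 arrays of an animal correlated over genes at r = 0.32, 0.73, 0.68, -0.36 and 0.55 in replicates 1 to 5 of day 21, and at r between 0.57 and 0.73 at day 7. Day 21 replicate 4 thus stands apart, with arrays that run against each other once turned for the dye swap, and its ratios over all genes had an SD of 0.065, against 0.15 to 0.24 in the other day 21 animals. Whether the dye label of one of these arrays is wrong was not tested. Day 21 means of the 8 genes and counts are given with and without it.

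Rasgrp1 was higher in sprouting neurons in every day 7 animal and near 0 in 3 of the 5 day 21 animals. At day 21 its ratios were 0.21, 0.46, -0.057, 0.0018 and 0.0077 in replicates 1 to 5. At day 7 they were 0.37, 0.32, 0.40, 0.53 and 0.63. The days overlap, since replicate 2 of day 21 lies above 3 of the day 7 animals. The mean was 0.13 ± 0.21 (SD, n = 5) at day 21 and 0.45 ± 0.13 (SD, n = 5) at day 7. The day 7 mean is a 1.37-fold higher signal in sprouting than in non-sprouting neurons. The day 21 ratio did not pass the test (limma adjusted p = 0.857, higher in 4 of 5 animals), nor did it without replicate 4, where the mean was 0.16 and the adjusted p = 0.801. Without replicate 2 the day 21 mean was 0.042. The arrays of replicate 4, which run against each other, read 0.030 and -0.027 for Rasgrp1, so its value near 0 is a mean of opposite signs. The day 21 mean was lower than the day 7 mean by 0.32 on the log2 scale, a difference described here with no test. A mean day 7 ratio at least as large was seen in 0.354% of all genes, and a ratio above 0 in 5 of 5 day 7 animals in 3.54% of genes. Both shares describe a value that was used to choose the gene.

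Rap1gap too was higher in sprouting neurons in every day 7 animal, by less than Rasgrp1 in the setting reported. With the processed signals of the scanner software the day 7 means were 0.68 for Rap1gap and 0.71 for Rasgrp1. In the setting reported, the day 21 ratios of Rap1gap were -0.062, 0.028, -0.058 and 0.046 in replicates 1, 2, 4 and 5. Replicate 3 has no value, because the spot on one of its arrays was marked as an outlier. That spot read -0.50 and the other array 0.094. With outlier spots kept, replicate 3 had -0.20 and the day 21 mean was -0.050. Its day 7 ratios were 0.19, 0.16, 0.14, 0.33 and 0.33. Every day 7 animal lay above every day 21 animal measured, 5 against 4. Such a separation was seen in 0.28% of all genes measured in all 10 animals, where it is harder to reach with 5 against 5. The mean was -0.012 ± 0.057 (SD, n = 4) at day 21 and 0.23 ± 0.095 (SD, n = 5) at day 7. The day 7 mean is a 1.17-fold higher signal in sprouting than in non-sprouting neurons, and the day 21 mean was below it by 0.24. The day 21 ratio did not pass the test (limma adjusted p = 0.982), with a standard error of 0.043, and without replicate 4 it was 0.0038. A mean day 7 ratio of at least this size was found in 3% of all genes. This share and the 0.28% above rest on day 7 values that were used to choose the gene.

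**Figure D1:**
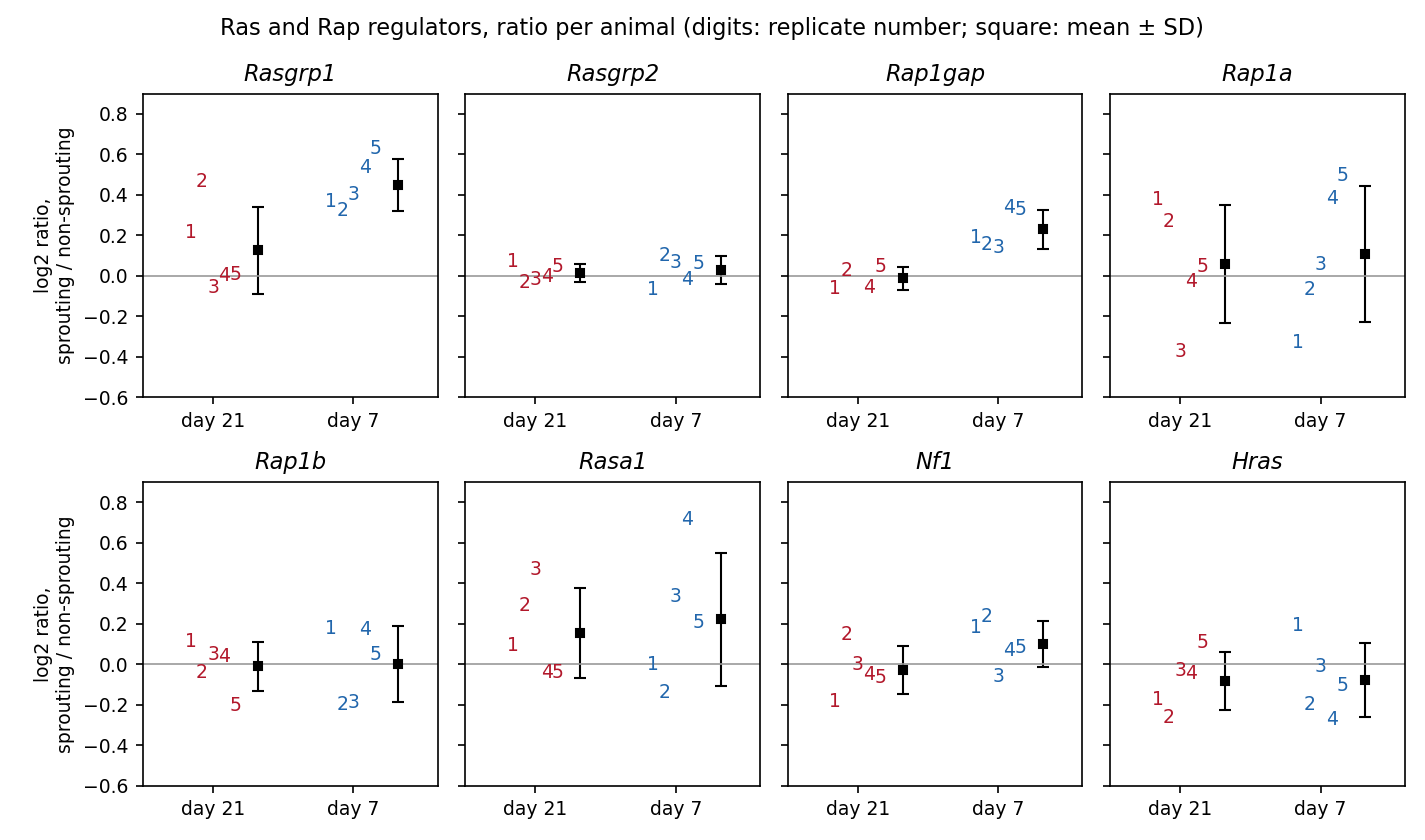
Log2 ratio of sprouting over non-sprouting neurons for each of the 8 genes, day 21 left and day 7 right in each panel, with digits for the animals' replicate numbers and a square with bars for the mean and SD. Rasgrp1 and Rap1gap lie above 0 in all 5 day 7 animals, and Rap1gap has no value in day 21 replicate 3.

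Each animal was measured on 2 arrays with the dyes exchanged. At day 21, 6 of 10 arrays gave a Rasgrp1 ratio above 0, and at day 7 all 10 did. Rap1gap was above 0 on 6 of 9 day 21 arrays and on all 10 day 7 arrays. With sprouting RNA in Cy5 the mean Rasgrp1 ratio of day 7 was 0.424, and with it in Cy3 it was 0.474. For Rap1gap these day 7 means were 0.235 in Cy5 and 0.223 in Cy3. The day 7 means thus had the same sign in both dye orientations. The SD of Rasgrp1 at day 7 was 0.0676 with sprouting RNA in Cy5 and 0.225 with it in Cy3. The 10 arrays of a day come from 5 animals, and the day 7 values chose both genes, so these counts and means are descriptions only.

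**Figure D2:**
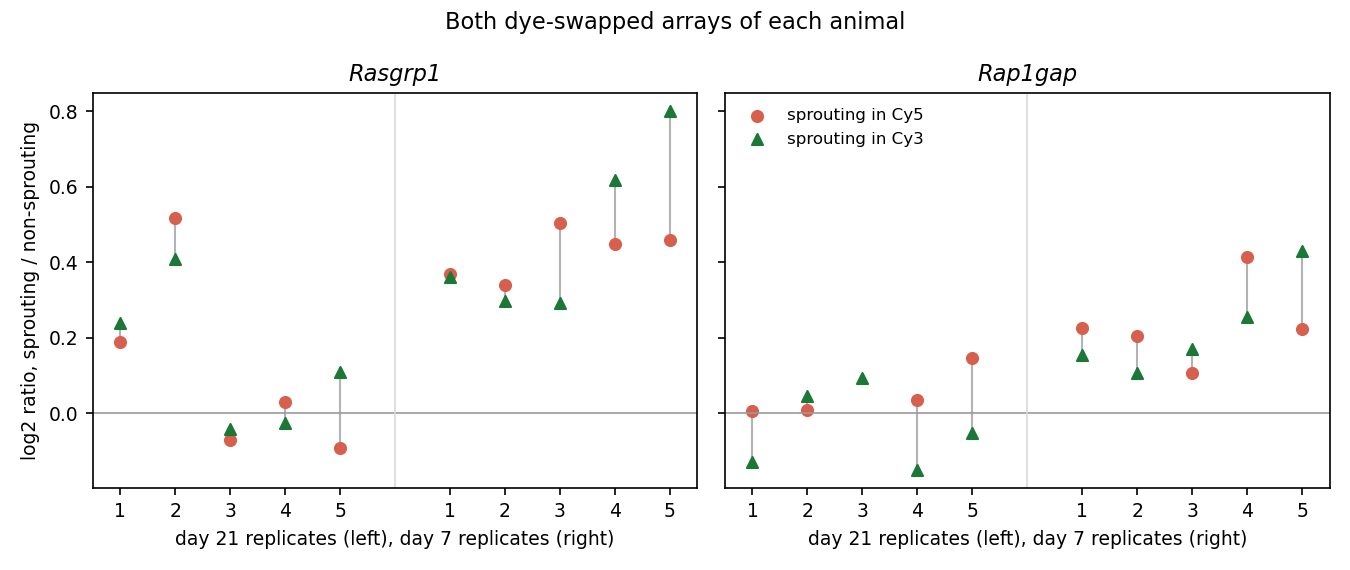
Log2 ratio of Rasgrp1 and Rap1gap on the 2 arrays of each animal, with sprouting RNA in Cy5 (circles) or Cy3 (triangles) and a line joining the arrays of an animal, day 21 animals left and day 7 animals right. All 10 day 7 arrays lie above 0 for both genes.

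The channels of each array also give a level per cell type. Rasgrp1 had log2 levels of 7.67 ± 0.35 in sprouting and 7.55 ± 0.32 in non-sprouting neurons at day 21, and of 7.84 ± 0.25 in sprouting and 7.39 ± 0.36 in non-sprouting neurons at day 7 (SD, n = 5 each). Ordered from high to low these were sprouting day 7, sprouting day 21, non-sprouting day 21 and non-sprouting day 7, and each step in that order was smaller than the SD of either neighbour. From one day to the other, the sprouting level at day 21 was 0.17 below day 7 and the non-sprouting level was 0.15 above it. Both moved when single animals were left out. Without day 7 replicate 5 they were -0.27 in sprouting and 0.010 in non-sprouting neurons, without day 21 replicate 4 -0.24 and 0.048, and without day 21 replicate 5 -0.049 and 0.24. Rap1gap had log2 levels of 6.51 ± 0.22 in sprouting and 6.52 ± 0.22 in non-sprouting neurons at day 21 (SD, n = 4 each), and of 6.66 ± 0.13 in sprouting and 6.43 ± 0.19 in non-sprouting neurons at day 7 (SD, n = 5 each). From high to low these were sprouting day 7, non-sprouting day 21, sprouting day 21 and non-sprouting day 7. The first step in that order was about as large as the SD at sprouting day 7, and the other steps lay within the SDs. Rap1gap is dim: it was well above background on 90% of sprouting and 80% of non-sprouting channels at day 21, and on 100% and 90% at day 7. Rasgrp1 was well above background on 90 to 100% of channels, and no probe of the 8 genes was saturated on any array.

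**Figure D3:**
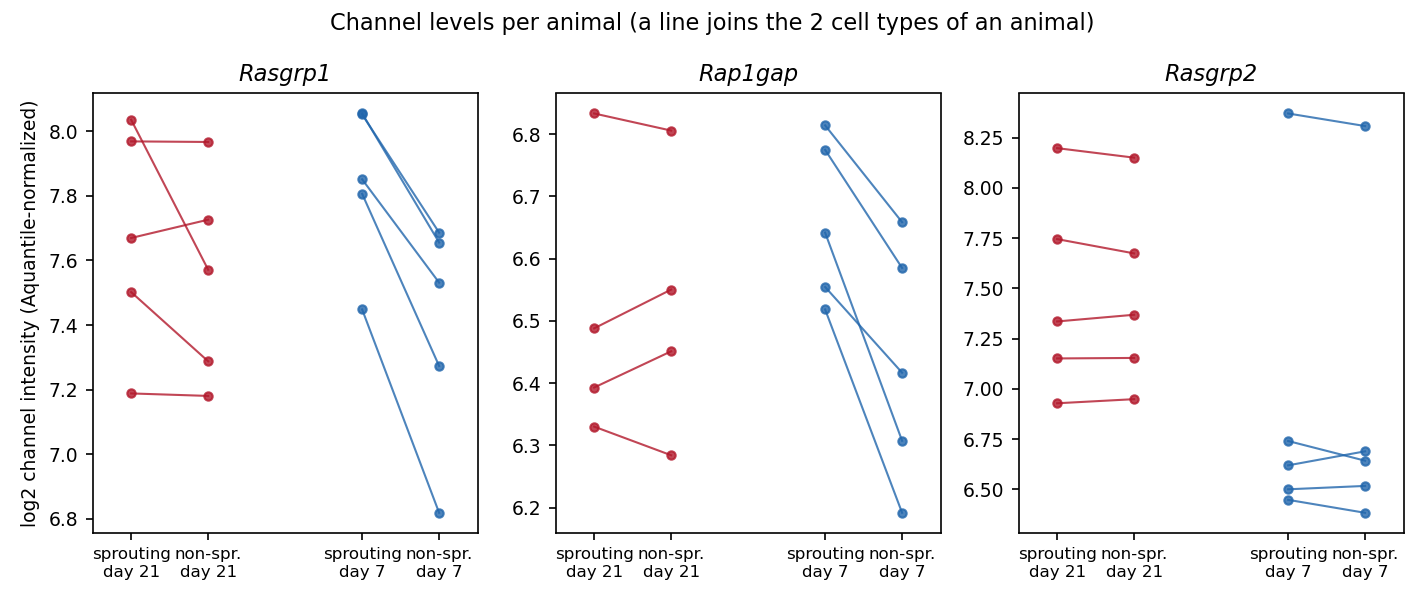
Log2 channel levels of Rasgrp1, Rap1gap and Rasgrp2 after Aquantile normalization, with a line joining the sprouting (left) and non-sprouting (right) neurons of an animal, day 21 in red and day 7 in blue. For Rasgrp1 and Rap1gap all 5 day 7 lines slope down from sprouting to non-sprouting, while Rasgrp2 lines are flat and day 7 replicate 5 lies far above the others.

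Scanning took place on several days, and 3 of them held animals of both cohorts, counting an animal by its first array. Within these the day 21 minus day 7 difference of Rasgrp1 was -0.29, -0.43 and -0.53. That of Rap1gap was -0.20 and -0.29, with no value on the scan day of day 21 replicate 3. Each scan day held only 1 day 7 animal, set against 2, 2 and 1 day 21 animals in that order. Both genes were chosen by their day 7 values, so the common sign is a description with no test. With scan day as a fixed block, an alternative added after seeing the data, the differences were -0.40 for Rasgrp1 and -0.26 for Rap1gap.

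The 8 general markers of neurons also had higher ratios at day 7. The median ratio of the 8 neuron markers was -0.029, 0.14, -0.12, -0.024 and -0.12 in day 21 replicates 1 to 5, and 0.12, 0.19, 0.10, 0.23 and 0.035 in day 7 replicates 1 to 5. It was above 0 in 1 of 5 day 21 animals and in all 5 day 7 animals. The 3 markers of projection neurons had median ratios of -0.046 to -0.014 at day 21 and -0.091 to 0.024 at day 7. The 7 markers of GABAergic interneurons had median ratios of -0.12 to 0.50 at day 21 and -0.10 to 0.15 at day 7. Neither list had a common sign at day 7. The log2 of the summed neuron marker level was 15.18 to 15.83 in sprouting and 14.99 to 15.90 in non-sprouting neurons at day 21. At day 7 it was 15.74 to 16.00 in sprouting and 15.61 to 15.93 in non-sprouting neurons. The brightest markers of a list weigh most in such a sum. The median ratio of the 10 oligodendrocyte markers ranged from -0.35 to 0.46 at day 21 and from -0.20 to 0.94 at day 7, with no common sign within either day. The log2 of their summed level was 13.70 to 15.66 in sprouting and 13.90 to 15.47 in non-sprouting neurons at day 21. At day 7 it was 15.12 to 16.25 in sprouting and 15.25 to 16.14 in non-sprouting neurons. Lymphocytes, in which Rasgrp1 is known as a T cell gene, gave median marker ratios between -0.034 and 0.046 at day 21 and between -0.057 and -0.013 at day 7. The log2 of the summed lymphocyte marker level was 9.61 to 9.82 in sprouting and 9.58 to 9.86 in non-sprouting neurons at day 21. At day 7 it was 9.78 to 9.996 in sprouting and 9.82 to 9.97 in non-sprouting neurons. Cd3e, which defines T cells, was well above background on 32.5% of channels. The part of these cell types in the Rasgrp1 and Rap1gap ratios was not tested.

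None of the other 6 genes passed the test on either day. At day 21 the test called 0 of 33089 genes (0% of all) at an adjusted p under 0.05, and 1920 (5.8%) at an unadjusted p under 0.05. At day 7 it called 1 gene (0.00302%) after adjustment and 3137 (9.48%) before it. None of the 8 genes at day 21, and none of the 6 at day 7, reached an unadjusted p under 0.05. None of the 8 was higher in 5 of 5 day 21 animals, as 4.23% of all genes were. Of the 8 mean ratios, 4 were above and 4 below 0 at day 21, with a median of 0.0013 beside -0.0015 over all genes. At day 7, 5 of the 6 were above 0, with a median of 0.064 beside -0.0054 over all genes.

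Rasgrp2, the exchange factor that acts mainly on Rap, lay close to 0 in all animals in the setting reported. Its ratios ran from -0.033 to 0.071 at day 21 and from -0.070 to 0.098 at day 7. The mean was 0.012 ± 0.045 (SD, n = 5, limma adjusted p = 0.975) at day 21 and 0.028 ± 0.069 (SD, n = 5, adjusted p = 0.795) at day 7. Its signal was well above background on 60 to 80% of channels only. With the processed signals of the scanner software, the mean ratio of Rasgrp2 was -0.42 at day 21 and 0.22 at day 7. Its level differed far more between animals than between cell types: 4 day 7 animals had sprouting levels of 6.45 to 6.74, and replicate 5 had 8.37.

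The Rap GTPases were measured with several probes. The brightest Rap1a probe gave 0.056 ± 0.29 (SD, n = 5, limma adjusted p = 0.972) at day 21 and 0.11 ± 0.34 (SD, n = 5, adjusted p = 0.804) at day 7. Animals differed in sign on both days, from -0.38 to 0.38 at day 21 and from -0.33 to 0.50 at day 7. The other Rap1a probes had means of 0.010 each at day 21 and of 0.10 and 0.023 at day 7. Rap1b, the near copy of Rap1a, gave -0.0099 ± 0.12 (SD, n = 5, limma adjusted p = 0.991) at day 21 and 0.0013 ± 0.19 (SD, n = 5, adjusted p = 0.997) at day 7. Its dimmer probe had means of 0.15 at day 21 and 0.18 at day 7, with SDs of 0.27 and 0.29, so the 2 probes do not give the same mean but overlap within their spread.

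The proteins that turn Ras off had the smallest day 7 p-values of the 6. Rasa1 gave 0.15 ± 0.22 (SD, n = 5, limma adjusted p = 0.892) at day 21, from -0.043 to 0.47, and 0.22 ± 0.33 (SD, n = 5, adjusted p = 0.556) at day 7, from -0.14 to 0.71. It was higher in sprouting neurons in 3 of 5 day 21 animals and in 4 of 5 day 7 animals. Its day 21 mean was 0.20 without day 21 replicate 4 and 0.074 without day 21 replicate 3. Its day 7 mean rests partly on replicate 4, without which it was 0.10. Nf1, which encodes neurofibromin, gave -0.031 ± 0.12 (SD, n = 5, limma adjusted p = 0.958) at day 21 and 0.10 ± 0.11 (SD, n = 5, adjusted p = 0.553) at day 7, where 4 of 5 animals were above 0. Its second probe had means of -0.034 at day 21 and 0.087 at day 7, but was well above background on only 10% of channels at day 21 and 50 to 60% at day 7.

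The brighter Hras probe was below 0 in 4 of 5 animals on each day. It ran from -0.27 to 0.11 at day 21 and from -0.27 to 0.19 at day 7. Its mean was -0.083 ± 0.14 (SD, n = 5, limma adjusted p = 0.902) at day 21 and -0.079 ± 0.18 (SD, n = 5, adjusted p = 0.719) at day 7. The other probe had means of -0.056 at day 21 and -0.0088 at day 7, and was above 0 in 1 of 5 day 21 and 3 of 5 day 7 animals. Without day 21 replicate 4 the day 21 means were 0.016 for Rasgrp2, 0.078 for Rap1a, -0.021 for Rap1b, -0.026 for Nf1 and -0.092 for Hras, and none of the 8 genes reached an unadjusted p under 0.05, as 6.55% of all genes did.

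The difference between days was also tested for these 6 genes, and none passed (0% of all genes did, and 4.05% had an unadjusted p under 0.05). The largest was that of Nf1, whose day 21 ratio was 0.13 lower (SE 0.072, limma adjusted p = 0.943). Within sprouting neurons the day 21 level over the day 7 level did not pass for any of the 6, nor did it within non-sprouting neurons (0% of all genes in both). None of the 6 reached an unadjusted p under 0.05 in either cell type, as 8.98% of all genes did in sprouting and 9.19% in non-sprouting neurons. Adjusted p-values ran from 0.569 to 0.949. The largest difference was that of Rasgrp2, with log2 levels of 7.47 ± 0.50 at day 21 and 6.94 ± 0.81 at day 7 in sprouting neurons, and of 7.46 ± 0.47 at day 21 and 6.91 ± 0.79 at day 7 in non-sprouting neurons (SD, n = 5 each). These differences of 0.54 and 0.55 were 0.89 and 0.90 without day 7 replicate 5, whose level lies far above the others, and 0.35 and 0.38 without day 21 replicate 5.

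Around the 8 genes, 128 other genes of the Ras and Rap pathways were listed in 9 role groups, and 111 of them were measured. None passed at an adjusted p under 0.05 on either day or in the difference. At day 21, 55 were above and 56 below 0 with a median of -0.0013, and 1 higher and 9 lower reached an unadjusted p under 0.05. At day 7, 58 were above and 53 below 0 with a median of 0.0089, and 10 higher and 6 lower reached it. Those 10 of 111 and 16 of 111 genes stand beside 5.8% of all genes at day 21 and 9.48% at day 7. Without day 21 replicate 4, 4 higher and 11 lower of the 111 reached it at day 21 (13.5%), beside 6.55% of all genes, and none passed after adjustment.

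**Figure D4:**
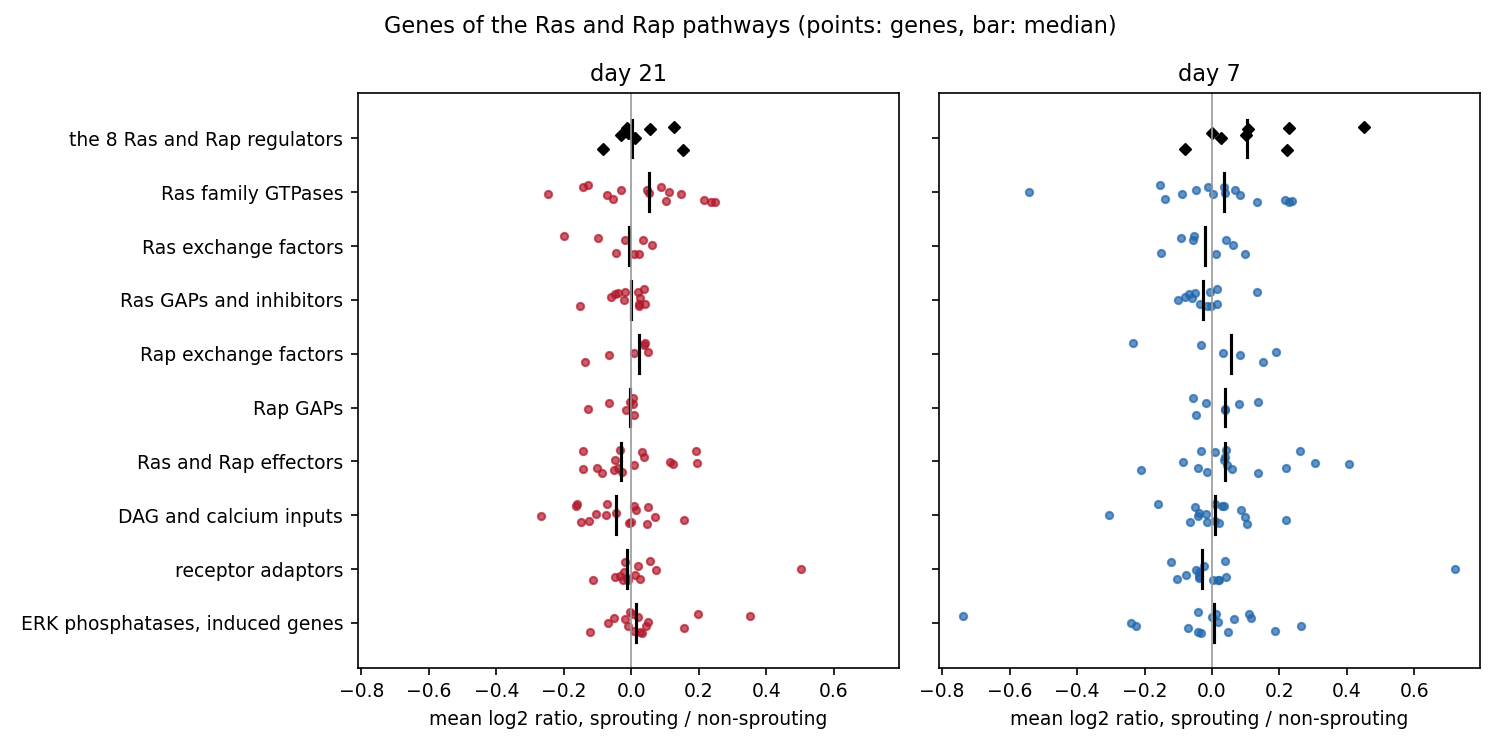
Mean log2 ratio of each measured gene of the 9 pathway groups (points) with the group median (bar), day 21 left and day 7 right, and the 8 Ras and Rap regulators on top as diamonds. The group medians lie near 0 on both days, between -0.045 and 0.057.

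The genes with the smallest p-values in each group are given by role, and none of them passed after adjustment. The day 21 values include replicate 4. Among Ras exchange factors, the calcium-regulated Rasgrf1 had -0.20 ± 0.25 at day 21, and the Rasgrp1 relative Rasgrp3 had 0.098 ± 0.12 at day 7. Rgl1, which acts on the Ras relative Ral, had -0.098 ± 0.12 at day 21 (n = 4), and Rasgrf2 had -0.15 ± 0.27 at day 7. Of the Rap exchange factors, Rapgef5 had 0.038 ± 0.042 at day 21 (0.021 without replicate 4) and Rapgef6 had 0.19 ± 0.37 at day 7. The Rap exchange factor Rapgef3, known as the cAMP sensor Epac, was lower in sprouting neurons in 5 of 5 day 21 animals and higher in 5 of 5 day 7 animals. Its ratios were -0.18, -0.16, -0.19, -0.0035 and -0.15 at day 21, and 0.14, 0.028, 0.30, 0.11 and 0.18 at day 7. Its means were -0.14 ± 0.077 (limma adjusted p = 0.84) and 0.15 ± 0.10 (adjusted p = 0.429) for day 21 and day 7 (SD, n = 5 each). A ratio below 0 in all 5 day 21 animals was seen in 4.09% of genes, and one above 0 in all 5 day 7 animals in 3.54%. The same pattern of signs was seen in 19 of 31821 genes (0.0597%), and the difference of -0.29 had a limma adjusted p = 0.943. Without day 21 replicate 4 its day 21 mean was -0.17 (adjusted p = 0.729).

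Among the proteins that turn Rap off and their relatives, 2 of 7 measured genes reached an unadjusted p under 0.05 at day 21, where 5.8% of all genes did, and 2 of 7 at day 7, where 9.48% did. At day 21 these were Tsc2, the GTPase-activating protein of Rheb, with -0.13 ± 0.13, and the Rap regulator Sipa1l2 with -0.067 ± 0.059. Without day 21 replicate 4 these 2 of 7 reached it too, where 6.55% of all genes did. The 2 genes at day 7 were Rap1gds1, which binds Rap1 as a chaperone, with 0.14 ± 0.15, and the Tsc2 partner Tsc1 with 0.079 ± 0.084. Of the Ras inhibitors, Spry4 had -0.059 ± 0.022 at day 21 (n = 5) and -0.079 ± 0.067 at day 7 (n = 4), and Rasal1 had -0.039 ± 0.042 at day 21 and -0.050 ± 0.027 at day 7. All of these sizes are small beside the day 7 ratio of Rasgrp1, a gene chosen because that ratio was high.

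Among effectors, Pik3r1, the regulatory subunit of PI3 kinase, was higher in sprouting neurons in all 5 day 7 animals. It had 0.12 ± 0.15 at day 21 and 0.41 ± 0.16 at day 7 (SD, n = 5 each), with an adjusted p = 0.221 at day 7, the smallest of the 111 genes. Afdn, a Rap effector at cell junctions, had 0.19 ± 0.25 at day 21 and 0.26 ± 0.21 at day 7. Among inputs that make or remove diacylglycerol, the phospholipase Plcb4 had -0.27 ± 0.21 and the diacylglycerol kinase Dgka had -0.16 ± 0.16 at day 21. Plcb1 had -0.16 ± 0.26 and Prkca, a protein kinase C, had 0.036 ± 0.043 at day 7. The spread of these inputs is as large as their means or nearly so.

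Among Ras family GTPases, Ralb had -0.14 ± 0.093 and Rasd2 had -0.25 ± 0.29 at day 21. At day 7 Rap2a had 0.24 ± 0.21 and was above 0 in 5 of 5 animals, and Rasd1, known as a gene induced by dexamethasone, had -0.54 ± 0.32 and was below 0 in 5 of 5, as were 5.1% of all genes. Among receptor adaptors Nck1 had -0.11 ± 0.098 and Nck2 had -0.047 ± 0.037 at day 21, while at day 7 Frs2 had -0.12 ± 0.15 and the phosphatase Ptpn11 had 0.72 ± 0.96. Among ERK phosphatases and genes induced by ERK, Dusp4 had -0.12 ± 0.22 and Fos had 0.20 ± 0.23 at day 21. At day 7 the transcription factor Etv5 had 0.19 ± 0.18 and Egr2 had -0.74 ± 0.77, with 4 of 5 animals below 0.

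Genes whose ratios were closest to those of Rasgrp1 and Rap1gap were found by the root mean square difference over animals. For Rasgrp1, over 10 animals and 13888 genes with a symbol, these were App, the amyloid precursor protein gene, at 0.0899, then Pitpnb at 0.143, Pik3r1 at 0.150, Rab6a at 0.155 and Sass6 at 0.168, beside a median of 0.394 over genes. App had 0.21 ± 0.28 at day 21 and 0.43 ± 0.10 at day 7. For Rap1gap, over its 9 measured animals and 13889 genes, they were Pinx1 at 0.0724, the potassium channel gene Kcnd2 at 0.0822, Rap1gds1 at 0.0839, Trmt11 at 0.0858 and Nap1l1 at 0.0861, beside a median of 0.227. Pinx1 had 0.015 ± 0.11 at day 21 and 0.22 ± 0.15 at day 7. These genes share the arrays, and so any array effect, with the gene they are set against.

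The size of the day 7 ratios depended on the processing, and their sign did not in the settings run. Over the setting reported and the other settings for background, normalization, probes, filters and outlier spots, the mean Rasgrp1 ratio at day 7 stayed above 0. The filter and probe rules cannot change Rasgrp1 or Rap1gap, which have 1 probe each, and the day 7 ratio chose both genes. With the processed signals of the scanner software, which differ from the reported setting in background, dye normalization and centring at once, it was 0.71 for Rasgrp1 and 0.68 for Rap1gap. The deposited log ratios of the authors gave 0.43 for Rasgrp1 and 0.21 for Rap1gap.

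**Figure D5:**
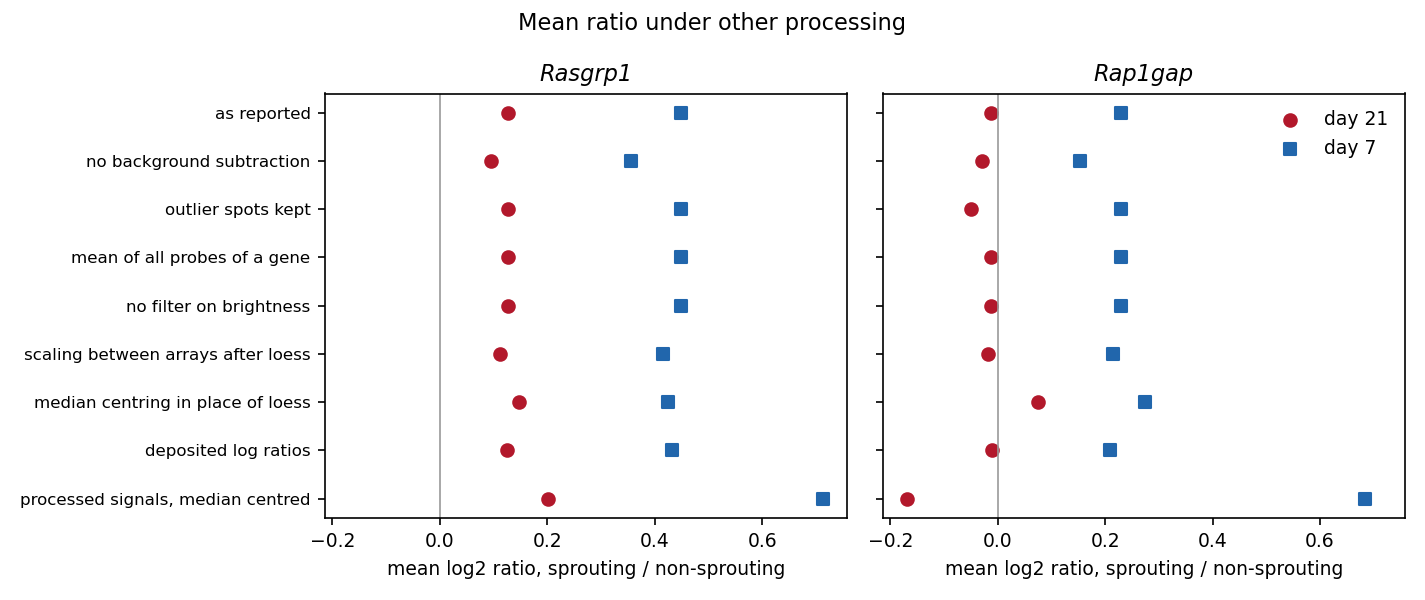
Mean log2 ratio of Rasgrp1 and Rap1gap at day 21 (red circles) and day 7 (blue squares) under the setting reported and 8 other ways of processing. Day 7 lies right of day 21 in every row. The rows without a brightness filter and with the mean of all probes cannot differ from the reported setting, since each gene has 1 probe. The processed signals of the scanner software give the largest day 7 ratios, 0.71 and 0.68.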

How the data were processed

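RNA of sprouting and non-sprouting neurons from 10 rats was compared on 20 two-colour arrays of 43628 spots. Per the file headers, Agilent Feature Extraction 9.1.3.1 gave, as deposited, an intensity (mean signal, local background, processed signal) and flags per spot. The authors also deposited normalized log2 ratios, Cy5 over Cy3, with no method given in the sources used here, not turned for the dye swap and with 75 missing values; they served as an alternative, and 20 columns of that table were not used.

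Signals were corrected with normexp (offset 50) and normalized within arrays by loess, in which the 2256 control spots had weight 0 and outlier spots were dropped (limma 3.58.1, R 4.3.3). Both arrays of an animal were averaged, and an animal without both has no value. A probe was kept where a share of 0.5 or more of the arrays of a cell type and day lay well above background and 3 or more animals per day had a value (37343 of 41012), and the brightest stood for a gene. Array names were updated with RefSeq's GRCr8 table (10658 probes by accession, 4654 by symbol, 3886 by synonym, 21814 kept). lmFit and eBayes were run in 1 fit with a mean per day (2.23 prior degrees of freedom), two-sided, at an adjusted p under 0.05. Levels were compared after Aquantile normalization. The fit was run on simulated data with known shifts as a check of the code, not of the results given here. The number of arrays limits the precision.

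The 8 genes, lists and tests were chosen with earlier results of these data known. Genes named beside the 8 are, per day, the 2 of each role group with the smallest p, and the 5 nearest to Rasgrp1 and to Rap1gap by root mean square difference. An item that the rule names is not reported here. The rule asked for all 10 animals, and 9 were used for Rap1gap, which has no value in 1. Alternatives were other background corrections, normalizations, filters, probe rules, moderation, thresholds, blocks (scan day, replicate number), a fit per day, and leaving out each animal.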

Additional observations from a re-analysis of the deposited data

Results flagged for a closer look

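Of 94 groups of animals examined for a sample far from the others, 5 had one, close to the 5% that chance gives. Rasgrp2 had a log2 level of 8.37 in sprouting neurons and 8.31 in non-sprouting neurons of day 7 replicate 5, where the next highest animals had 6.74 and 6.69, while the ratio of that animal was 0.063. Rasa1 had a sprouting level of 9.58 in day 21 replicate 1, below the 10.5 of the next animal. Hras had a sprouting level of 12.99 in day 7 replicate 1, above the 12.1 of the next animal.

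Rapgef3 stood out in 2 ways. Its day 21 ratio in replicate 4, -0.0035, lay apart from the others at -0.15 to -0.19, in the animal whose arrays run against each other. Its ratio was below 0 in all 5 day 21 animals and above 0 in all 5 day 7 animals, a day 21 minus day 7 difference of -0.29 that did not pass after adjustment over all genes (limma adjusted p = 0.943).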

How the results depend on the processing

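The count of genes past the threshold was 0 under every setting run, over 23 settings for the day 21 ratio (all 8 genes), 23 for the day 7 ratio and 24 for the difference (6 genes each), and 17 for the levels within each cell type. Member adjusted p-values were never under 0.161. Mean ratios of Rasgrp1 and Rap1gap at day 7 were above 0 in 14 of 14 settings, from 0.36 to 0.71 and from 0.15 to 0.68. Many of these settings could not change the sign. Some leave out 1 day 7 animal where every animal was above 0, and the filter and probe rules leave a gene with 1 probe unchanged. The day 7 ratios are also the values by which both genes were chosen. Leaving out 1 animal kept Rasgrp1 at day 7 between 0.40 and 0.48, and its day 21 mean between 0.042 and 0.17. Beyond the spread between animals, the processed signals moved Rasgrp1 (0.71), Rap1gap (0.68), Rasgrp2 (0.22) and Nf1 (0.24) at day 7, and Rap1gap (-0.17) and Rasgrp2 (-0.42) at day 21. Median centring in place of loess moved Rasgrp2 (-0.083) and Rap1gap (0.074) at day 21 and Hras (-0.26) at day 7. The cause was not tested. The sign of Rap1b at day 7 held in 7 of 14 settings. The stricter filter on brightness left 7 of the 8 genes, without Rasgrp2.

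Replicate numbers do not pair animals: animals of the same number in both cohorts correlated at r of -0.20 to 0.0017, and 0 of 5 matched their own number best. With the replicate block, which was fitted for the comparisons between days only, 0 of 6 genes passed in the difference of the ratios and 0 of 6 in the levels of each cell type. Dim probes limit what can be seen of Rasgrp2 and Rap1gap.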
